A study of Mus musculus with 9 samples.

Results

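Crypts of the small intestine that had lost Pcgf6 through AhCre were compared with wild-type crypts of the same driver, and the comparison was read across every gene with enough counts. The libraries were chosen by their labels alone: 2 wild-type (AhCre WT) and 2 knockout (AhCre Pcgf6 KO) libraries, 4 of the 9 in the series, fitted without the other 5. The series asked what loss of PCGF6 does to adult intestinal epithelium, using AhCre and, in the other libraries, tamoxifen-induced Villin CreERT2. All 4 AhCre libraries came from crypts of male C57BL/6 mice of 8 to 12 weeks that had been given BNF (beta-naphthoflavone). The sample titles give 15 days after BNF, whereas a second line of the sample descriptions and the series' design text give 7 days. The genotypes are given as WT and as Pcgf6 KO (a conditional knockout); whether the wild-type mice carried floxed alleles was not given in the sources used here. AhCre is a Cre recombinase under the Cyp1a1 promoter, which an agonist of the aryl hydrocarbon receptor such as BNF switches on; both groups carried it and both received the agonist. The labels do not say that the replicates were separate mice, so the p-values measure the spread between these libraries, which may be partly technical.

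PCGF6 is the Polycomb subunit that defines PRC1.6, a variant of Polycomb repressive complex 1. PRC1.6 is brought to DNA through MGA with MAX and through E2F6 with DP1, and it is known for keeping germline genes silent in embryonic stem cells. The small intestinal crypt holds stem cells, dividing progenitors, Paneth cells and cells on their way to the absorptive, goblet, enteroendocrine and tuft lineages. Tuft cells are rare chemosensory cells that use a taste-type signalling cascade, depend on the transcription factor POU2F3, and release IL-25, eicosanoids and acetylcholine. IL-25 acts on innate lymphoid cells, whose IL-13 in turn favours tuft and goblet cells, a loop known from infections with worms and protists.

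The tables held between 9263993 and 12377921 counts per library, so that 3 counts correspond to 0.242 to 0.332 CPM (counts scaled to a common library total, with TMM factors). The leading principal component, with 62.2% of the variance of log2 CPM, separated knockout from wild type, and the next, with 24.6%, separated knockout 1 from knockout 2. The knockout libraries differed from each other more than the wild-type libraries did: among 7856 genes with a mean of at least 20 CPM, 73 differed by more than 2-fold between the knockouts and 2 between the wild types. Those 2 were the alpha-defensins Defa2 and Defa20. The epithelial markers were high in all 4 libraries, with a summed level of 11278 to 13644 CPM over 11 genes.

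Pcgf6 itself (ENSMUSG00000025050.8; GRCm38 chromosome 19, 47033617 to 47050906, minus strand), counted over its whole transcript, had 17.7 and 12.5 CPM in wild type and 8.93 and 7.52 CPM in knockout. Both knockout libraries lay below both wild-type libraries, but about as much transcript was left as had been lost. The log2 fold change was -0.88 (SE 0.24, adjusted p = 0.0357, edgeR's quasi-likelihood test with Benjamini-Hochberg adjustment over 16257 genes). DESeq2 put it at an adjusted p of 0.0832, and without wild type 1 it was -0.61 with an adjusted p of 0.45. Which exons were removed was not given in the sources used here, and counts over the whole gene do not show whether what remained could be translated. Of 39 tested genes within 1 Mb of Pcgf6, itself included, 4 passed the test, where 6.43% of all tested genes passed. Besides Pcgf6 these were Cnnm2, a magnesium transport protein, with 19.8 and 19.9 CPM in wild type and 11.5 and 3.54 CPM in knockout (log2 fold change -1.38, SE 0.33, adjusted p = 0.0157), and 2 genes that rose. Calhm3, a subunit of a taste-cell ion channel, had 0.403 and 0.460 CPM in wild type and 2.61 and 2.87 CPM in knockout (log2 fold change 2.64, SE 0.49, adjusted p = 0.00227), and Neurl1a, a ubiquitin ligase, rose with a log2 fold change of 1.62 (adjusted p = 0.00615). The call of Cnnm2 was absent under DESeq2 (adjusted p = 0.443).

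Across the 16257 genes tested, 588 were higher in the knockout (3.62%) and 458 were lower (2.82%) at an adjusted p under 0.05, 6.43% in all. The rises were larger than the falls at the top end: 142 of the 588 rose at least 4-fold and 38 at least 8-fold, against 69 and 18 of the 458 that fell. Together the genes that rose took 4.54% and 4.21% of the counts in wild type and 8.30% and 8.10% in knockout. The genes that fell went from 4.97% and 4.93% to 2.76% and 2.75%. In each of these genes both knockout libraries lay on the same side of both wild-type libraries, an arrangement that 24.7% of all tested genes showed upwards and 24.0% downwards. The median log2 fold change of all tested genes was 0.01. At an unadjusted p under 0.05, 1639 genes were higher and 1479 lower.

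These counts rest on the spread within 2 pairs of libraries. Without wild type 1 there were 380 genes higher and 200 lower, and without wild type 2 there were 300 and 185. Without knockout 1 the numbers were 1082 and 1018, and without knockout 2 they were 994 and 702. When all 9 libraries shared one estimate of the spread, Pla2g4c was the only gene that passed (adjusted p = 0.000517). The biological coefficient of variation was 0.133 in the AhCre fit and 0.424 in the Villin fit. The calls are therefore statements about these 4 libraries and their own spread.

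**Figure D1:**
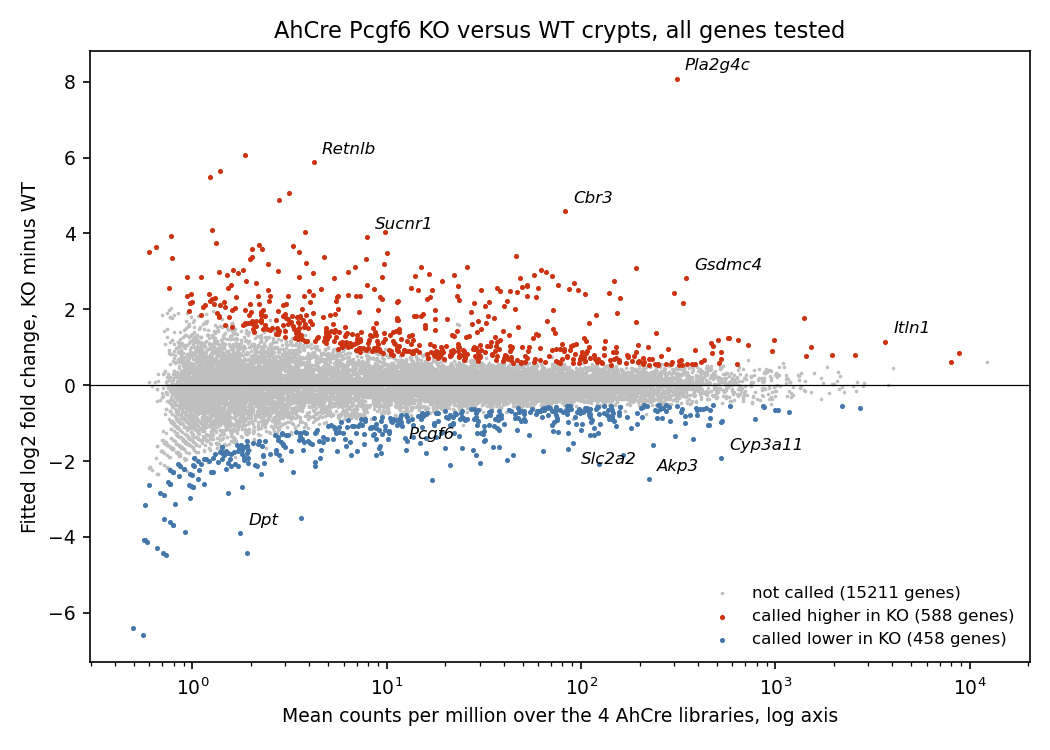
Fitted log2 fold change of AhCre Pcgf6 KO minus WT (vertical axis) against mean CPM over the 4 AhCre libraries (horizontal log axis), 1 point per tested gene, with 588 genes called higher in red, 458 called lower in blue and 15211 not called in grey. Pla2g4c stands alone at the top with 8.08, while Pcgf6 lies at -0.88.

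The gene that rose most was Pla2g4c (ENSMUSG00000033847.15; GRCm38 chromosome 7, 13324655 to 13360672, plus strand), a cytosolic phospholipase A2 that frees fatty acids from membrane lipids. It had 2.82 and 1.66 CPM in wild type and 669.7 and 565 CPM in knockout. The wild-type libraries held a trace and both knockout libraries were far above them (log2 fold change 8.08, SE 0.25, adjusted p = 5.79e-13). Retnlb, the goblet cell protein RELM-beta, had 0.00 and 0.276 CPM in wild type and 7.03 and 9.50 CPM in knockout, from 3 reads in all in wild type; the ratio of knockout to wild type was 63.6, with an exact 95% counting interval of 21.4 to 312. Anxa10, a calcium-dependent phospholipid-binding protein, went from 1 read to 52, a ratio of 63.6 with a 95% counting interval of 10.9 to 2561. These intervals cover counting error only. Mbl2, a mannose-binding lectin of the complement system, rose from 1.05 and 1.20 CPM to 15.3 and 21.9 CPM (log2 fold change 4.04, SE 0.31, adjusted p = 1.07e-07), and U90926, annotated as protein-coding, rose by a log2 fold change of 4.89 (adjusted p = 5.36e-06).

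Among the genes that fell, the furthest with a mean of at least 1 CPM was AC102496.1, a non-coding transcript that went from 84 reads to 3, a ratio of 0.0437 with a 95% counting interval of 0.00884 to 0.132. Dpt, a matrix protein of fibroblasts, had 4.03 and 2.58 CPM in wild type and 0.201 and 0.221 CPM in knockout (log2 fold change -3.91, SE 0.58, adjusted p = 0.000249). Ccl24, a chemokine that attracts eosinophils, had 6.93 and 6.44 CPM in wild type and 0.402 and 0.774 CPM in knockout (log2 fold change -3.50, SE 0.41, adjusted p = 1.91e-05). Both genes were scarce in every library. Genes of digestion and transport fell as well: Akp3, an intestinal alkaline phosphatase, had 346 and 412 CPM in wild type and 72.0 and 63.5 CPM in knockout (log2 fold change -2.48, SE 0.17, adjusted p = 3.42e-08), and Aqp8, a water channel, had 30.2 and 28.0 CPM in wild type and 4.32 and 6.08 CPM in knockout (log2 fold change -2.49, SE 0.23, adjusted p = 1.05e-06). In both genes each knockout library lay far below each wild-type library.

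Tuft cell genes rose together. Of 69 listed genes 64 were tested, and 50 of these were called higher and 1 lower, where 3.62% and 2.82% of all tested genes were called. This list, like the other lists and families below, was chosen with earlier results of these data known. Its count therefore describes the genes chosen. The median log2 fold change of the 64 was 2.19, against 0.01 for all genes. Their summed level was 3469 and 3214 CPM in wild type and 6714 and 6803 CPM in knockout. In bulk crypts more tuft cells and more RNA per tuft cell cannot be told apart. The number called higher was 48 to 52 when any 1 of the 4 libraries was left out. With all 9 libraries in the edgeR fit 0 of them passed; there 43 were higher and 0 lower at an unadjusted p under 0.05, and the median was 2.16.

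In the taste-type cascade 7 of 9 tested genes rose, where 3.62% of all tested genes did. Gnat3, the gustducin alpha subunit that couples taste receptors to the cascade, had 1.05 and 1.66 CPM in wild type and 7.23 and 8.40 CPM in knockout (log2 fold change 2.53, SE 0.34, adjusted p = 8.98e-05). Its effector Plcb2, a phospholipase C, had 10.1 and 14 CPM in wild type and 58.7 and 51.7 CPM in knockout (log2 fold change 2.20, SE 0.20, adjusted p = 1.05e-06). Both were several-fold higher in each knockout library than in each wild-type library. Trpm5, the cation channel that ends the cascade, had 49.8 and 58.5 CPM in wild type and 289 and 239.9 CPM in knockout (log2 fold change 2.29, SE 0.17, adjusted p = 9.14e-08). Rgs13, a regulator that shortens G-protein signals, had 40.2 and 26.6 CPM in wild type and 169.6 and 182 CPM in knockout (log2 fold change 2.39, SE 0.19, adjusted p = 1.93e-07). The gamma subunit Gng13 rose with a log2 fold change of 2.20 (adjusted p = 0.000652). Of the more broadly expressed members, Itpr2, an inositol trisphosphate receptor, rose by 1.27 and Plcg2 by 0.96, while Itpr3, the receptor used by taste cells, had a log2 fold change of 0.18 (SE 0.16, adjusted p = 0.608). The call of Plcg2 ended without wild type 1 (adjusted p = 0.0835).

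The enzymes that make leukotrienes and prostaglandins followed the same pattern, with 6 of 7 called higher, against 3.62% of all tested genes. Alox5, the 5-lipoxygenase that begins leukotriene synthesis, had 11.9 and 17.2 CPM in wild type and 95.1 and 86.0 CPM in knockout (log2 fold change 2.64, SE 0.20, adjusted p = 9.96e-08), and its partner Alox5ap, which presents arachidonic acid to it, had 11 and 10.4 CPM in wild type and 56.6 and 70.1 CPM in knockout (log2 fold change 2.56, SE 0.20, adjusted p = 9.96e-08). Ltc4s, which joins glutathione to leukotriene A4, rose from 14.8 and 15.2 CPM to 31.1 and 41.0 CPM (log2 fold change 1.27, SE 0.20, adjusted p = 0.00048). All 3 steps were thus higher in both knockout libraries. On the prostaglandin side Ptgs1, a cyclooxygenase, had 5.0 and 6.08 CPM in wild type and 25.7 and 28.0 CPM in knockout (log2 fold change 2.28, SE 0.22, adjusted p = 1.74e-06), and Hpgds, which makes prostaglandin D2, had 5.56 and 5.52 CPM in wild type and 24.9 and 30.4 CPM in knockout (log2 fold change 2.31, SE 0.22, adjusted p = 1.53e-06). Pla2g4a, the phospholipase that supplies arachidonic acid, rose by 0.90 (adjusted p = 0.0125), a call that ended without wild type 2 (adjusted p = 0.412). The inducible cyclooxygenase Ptgs2 was scarce, at 1.85 and 1.29 CPM in wild type and 2.61 and 2.65 CPM in knockout, and did not pass (adjusted p = 0.335).

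For acetylcholine, 2 of 4 tested genes rose, the enzyme and the carrier, against 3.62% of all tested genes. Chat, which makes acetylcholine, had 1.61 and 1.20 CPM in wild type and 12.0 and 12.7 CPM in knockout (log2 fold change 3.12, SE 0.30, adjusted p = 1.71e-06). Slc18a3, which loads it into vesicles and lies within the first intron of Chat, went from 1 read in wild type to 46 in knockout, a ratio of 56.3 with a 95% counting interval of 9.61 to 2271. Ache, which breaks acetylcholine down, overlapped between the groups, with 8.47 and 9.76 CPM in wild type and 7.63 and 9.06 CPM in knockout, and the muscarinic receptor Chrm3 had a log2 fold change of 0.83 (SE 0.31, adjusted p = 0.133).

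Of 9 transcription factors known from tuft cells 7 rose, where 3.62% of all tested genes did. Pou2f3, on which the lineage depends, had 5.08 and 3.50 CPM in wild type and 30.1 and 19.5 CPM in knockout (log2 fold change 2.52, SE 0.27, adjusted p = 5.31e-06). Gfi1b had 1.61 and 2.49 CPM in wild type and 11.4 and 9.73 CPM in knockout (log2 fold change 2.38, SE 0.30, adjusted p = 4.71e-05), and Spib, an ETS factor also used by M cells, had 28.4 and 29.6 CPM in wild type and 122 and 108 CPM in knockout (log2 fold change 1.99, SE 0.17, adjusted p = 4.56e-07). The knockout libraries exceeded the wild-type libraries in each, with knockout 1 above knockout 2. The paired homeobox genes Hmx2 and Hmx3 rose by 3.39 and 2.53 (adjusted p = 3.98e-06 and 3.19e-05). Runx1, a factor shared with blood cells, had 7.58 and 6.72 CPM in wild type and 18.9 and 14.4 CPM in knockout (log2 fold change 1.22, SE 0.23, adjusted p = 0.00311).

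Signalling proteins that tuft cells share with blood cells formed the largest group, with 15 of 18 called higher. Matk, a kinase that restrains SRC-family kinases, had 22.1 and 27.2 CPM in wild type and 150.1 and 168 CPM in knockout (log2 fold change 2.69, SE 0.18, adjusted p = 3.09e-08). The exchange factor Vav1 had 17.4 and 18.9 CPM in wild type and 72.2 and 74.9 CPM in knockout (log2 fold change 2.02, SE 0.18, adjusted p = 5.81e-07). In both genes the replicates lay close together and the groups far apart. Bmx, a TEC-family kinase, rose by 2.90 (adjusted p = 1.61e-07), Inpp5d, a lipid phosphatase, by 1.92 (adjusted p = 2.3e-06) and Ptpn6, a tyrosine phosphatase, by 0.83 (adjusted p = 0.00324), the last without a call when wild type 1 was left out (adjusted p = 0.112). Ptprc, the CD45 phosphatase, rose from 26.3 and 22.6 CPM to 58.2 and 63.8 CPM (log2 fold change 1.32, SE 0.18, adjusted p = 9.91e-05). Since leukocytes also carry these genes, their own markers were read in the same libraries. Of the 25 and 22 such markers listed, 0 were at 0 in all 4 libraries, and 3 myeloid markers were at 0 in 1. Of 23 tested lymphocyte and plasma cell markers 2 rose and 2 fell, where 3.62% and 2.82% of all tested genes did. The summed level of these markers was 572 to 572 CPM in wild type and 441 to 560.2 CPM in knockout. Of 16 tested myeloid and mast cell markers 1 rose and 6 fell, with 263 to 277 CPM in wild type and 237 to 248 CPM in knockout. Their part in the rises was not tested.

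**Figure D2:**
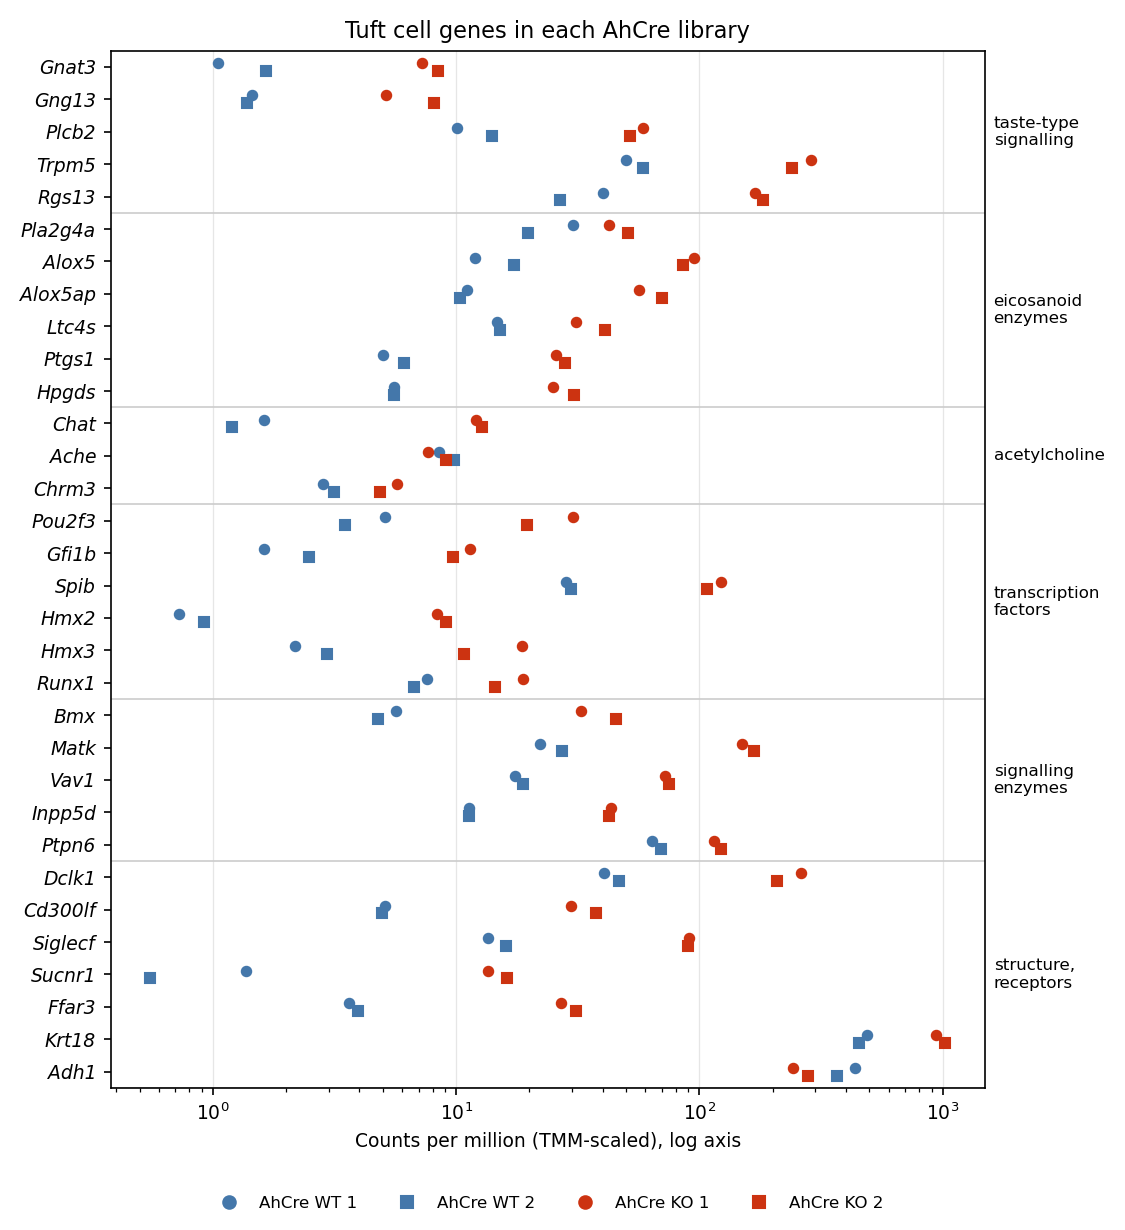
CPM (log axis) of tuft cell genes in each of the 4 AhCre libraries, grouped by role, with wild type in blue, knockout in red, replicate 1 as circles and replicate 2 as squares. Apart from Ache, whose libraries overlap, and Adh1, which is lower in knockout, the red points of each gene lie to the right of the blue ones.

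Of 17 tested receptors, surface proteins and structural proteins of tuft cells 13 rose and 1 fell, where 3.62% and 2.82% of all tested genes did. Sucnr1, the succinate receptor through which tuft cells sense protists, had 1.37 and 0.552 CPM in wild type and 13.5 and 16.2 CPM in knockout (log2 fold change 3.90, SE 0.35, adjusted p = 5.81e-07). Ffar3, a receptor for short-chain fatty acids, had 3.63 and 3.96 CPM in wild type and 26.9 and 31.2 CPM in knockout (log2 fold change 2.93, SE 0.23, adjusted p = 1.23e-07). Cd300lf, the entry receptor of murine norovirus, had 5.08 and 4.97 CPM in wild type and 29.6 and 37.5 CPM in knockout (log2 fold change 2.73, SE 0.22, adjusted p = 2e-07). Dclk1, a microtubule-associated kinase widely used to mark tuft cells, had 40.6 and 46.8 CPM in wild type and 261 and 208 CPM in knockout (log2 fold change 2.43, SE 0.18, adjusted p = 7.22e-08). Siglecf, a sialic-acid lectin, rose by 2.61 (adjusted p = 5.11e-08), and Il17rb, the receptor for IL-25, by 1.44 (adjusted p = 0.00126). Krt18, a keratin of many epithelial cells that is dense in tuft cells, went from 487 and 453 CPM to 939 and 1024 CPM (log2 fold change 1.06, SE 0.15, adjusted p = 0.000141). Il25 itself had 3 reads in wild type and 28 in knockout, too few to be tested; the ratio was 11.4 with a 95% counting interval of 3.53 to 58.7. The only listed gene that fell was Adh1, an alcohol dehydrogenase also made by enterocytes, with 434 and 368 CPM in wild type and 242 and 279 CPM in knockout (log2 fold change -0.62, SE 0.16, adjusted p = 0.0213); it did not pass without wild type 1 or without wild type 2 (adjusted p = 0.357 and 0.0503).

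The sequences before the starts of genes that rose are shown because PRC1.6 is brought to DNA by factors that read known letters. RefSeq promoters of 300 bases (250 before and 50 after the start, GRCm38.p6) were found for 11196 of the 16257 genes tested, and Pou2f3 had no entry. Each was searched on both strands for the E-box CACGTG bound by MGA with MAX, the E2F site GCGGGAA, the T-box letters AGGTGTGA and the octamer ATGCAAAT that POU factors bind. The promoter of Pla2g4c (chr7:13325417-13325716, plus strand) held none of the 4. That window lies inside the annotated span of the gene given above, after its annotated start, so bases before that start were not searched. Chat (chr14:32465860-32466159, minus strand) had the largest rise among tuft genes with the E-box, Cd300lf (chr11:115133943-115134242, minus strand) among those with the E2F site and Sucnr1 (chr3:60081619-60081918, plus strand) among those with the octamer. Capitals mark the letters found, and each sequence reads 5′ to 3′ on its gene's strand.
Pla2g4c: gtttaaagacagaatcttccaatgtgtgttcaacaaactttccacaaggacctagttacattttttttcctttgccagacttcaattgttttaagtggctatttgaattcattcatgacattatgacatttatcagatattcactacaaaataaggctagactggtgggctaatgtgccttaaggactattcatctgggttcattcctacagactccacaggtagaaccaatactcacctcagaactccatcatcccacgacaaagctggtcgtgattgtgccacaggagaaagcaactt
Chat: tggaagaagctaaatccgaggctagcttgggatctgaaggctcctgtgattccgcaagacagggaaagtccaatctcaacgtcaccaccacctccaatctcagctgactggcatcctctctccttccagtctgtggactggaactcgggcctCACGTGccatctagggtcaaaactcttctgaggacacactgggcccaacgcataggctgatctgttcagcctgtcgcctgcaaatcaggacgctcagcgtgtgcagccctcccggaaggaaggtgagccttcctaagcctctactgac
Cd300lf: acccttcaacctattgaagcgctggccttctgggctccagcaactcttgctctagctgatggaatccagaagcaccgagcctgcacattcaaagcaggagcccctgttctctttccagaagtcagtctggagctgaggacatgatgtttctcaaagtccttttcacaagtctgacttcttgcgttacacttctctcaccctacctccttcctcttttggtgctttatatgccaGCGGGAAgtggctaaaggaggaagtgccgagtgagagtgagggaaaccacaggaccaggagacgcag
Sucnr1: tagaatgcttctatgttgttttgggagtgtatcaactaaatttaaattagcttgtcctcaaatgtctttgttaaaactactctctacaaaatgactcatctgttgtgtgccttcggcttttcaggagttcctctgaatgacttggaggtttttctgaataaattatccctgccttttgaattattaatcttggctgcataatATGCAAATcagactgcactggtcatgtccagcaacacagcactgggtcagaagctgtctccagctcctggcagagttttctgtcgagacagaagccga
The E-box stood in 9.79% of all promoters, 10.3% of the 379 of genes that rose and 6.63% of the 332 of genes that fell. The E2F site stood in 8.10%, 5.54% and 4.82%, and the T-box letters in 0.947%, 1.58% and 1.20%. The octamer stood in 1.58% of all promoters, in 3.43% of those that rose and in 3.31% of those that fell. Of the 43 promoters of tuft genes that rose, 3 held the E-box (6.98%), 2 the E2F site (4.65%), 0 the T-box letters and 4 the octamer (9.30%). These shares are descriptions of letters in a short window, and no test was made of them.

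Targets of type 2 cytokines rose with the tuft genes, but not as a whole list. The list was chosen with earlier results of these data known, so its count describes the genes chosen. Of 19 tested genes 8 rose and 1 fell, where 3.62% and 2.82% of all tested genes did. Their median log2 fold change was 0.67, and Pla2g4c and Retnlb, given above, are 2 of the 8. The gasdermin C genes, pore-forming proteins that IL-4 and IL-13 induce in intestinal epithelium, rose: Gsdmc2 had 41.1 and 40.0 CPM in wild type and 337 and 348 CPM in knockout and Gsdmc4 had 94.7 and 76.5 CPM in wild type and 592 and 616 CPM in knockout. Their log2 fold changes were 3.08 and 2.82 (adjusted p = 2.56e-09 and 1.04e-08), with 2.98 for Gsdmc3. These copies are near-identical in sequence, so reads may be shared among them and the single values are uncertain. The same holds for Sprr2a3, a cornified-envelope protein with near-identical neighbours, which had 16.3 and 18.4 CPM in wild type and 90.7 and 114 CPM in knockout (log2 fold change 2.56, SE 0.19, adjusted p = 8.54e-08). Ang4, a bactericidal ribonuclease, had 689 and 591 CPM in wild type and 2022 and 2320.4 CPM in knockout (log2 fold change 1.76, SE 0.16, adjusted p = 6.64e-07), and Itln1, the lectin intelectin, had 2402 and 2153 CPM in wild type and 4783 and 5284 CPM in knockout (log2 fold change 1.14, SE 0.15, adjusted p = 8.06e-05). Arg1, an arginase that IL-4 and IL-13 induce in macrophages, fell by 0.96 on the log2 scale (adjusted p = 0.0302), a call that was lost under DESeq2 (adjusted p = 0.0583), without knockout 1 (adjusted p = 0.095) and without wild type 1 (adjusted p = 0.148).

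Most Paneth cell genes rose. Of 20 tested genes 16 were called higher, where 3.62% of all tested genes were. The Paneth list and the alpha-defensin family were chosen with earlier results of these data known, so their counts describe the genes chosen. All 20 had a positive log2 fold change, with a median of 0.98. Their summed level went from 12539 and 11001 CPM to 21126 and 23265 CPM. Defa30, an alpha-defensin, had 1069 and 961 CPM in wild type and 2000.1 and 2093 CPM in knockout (log2 fold change 1.01, SE 0.15, adjusted p = 0.000232), and 11 of 15 tested alpha-defensins rose, although these copies are so alike that reads may be split among them. Defa2 and Defa20 did not pass (adjusted p = 0.164 and 0.177). They had 22.7 and 22.2 CPM in wild type 1 but 0.368 and 0.184 CPM in wild type 2. In the knockout libraries both had 32.3 to 37.2 CPM. Pnliprp2, a pancreatic-type lipase, had 123 and 119 CPM in wild type and 481 and 607 CPM in knockout (log2 fold change 2.17, SE 0.16, adjusted p = 9.68e-08), and Mptx1, a mucosal pentraxin, had 14.8 and 15.7 CPM in wild type and 53.8 and 76.0 CPM in knockout (log2 fold change 2.09, SE 0.20, adjusted p = 1.73e-06). Lyz1, the Paneth lysozyme, had 3594 and 3151 CPM in wild type and 4460.0 and 4839.5 CPM in knockout and did not pass (adjusted p = 0.0838). Ang4 and Itln1 belong to this list as well as to the type 2 list. When single libraries were left out, 12 to 20 Paneth genes were called higher.

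Goblet cell genes did not move as a group. Of 24 tested 6 rose and 2 fell, where 3.62% and 2.82% of all tested genes did. The median log2 fold change was 0.22. The summed level was 9621 and 10530.4 CPM in wild type against 10906 and 10998 CPM in knockout. Clca1, a secreted metalloprotease of mucus that IL-13 induces, had 603 and 594 CPM in wild type and 1413 and 1317 CPM in knockout (log2 fold change 1.19, SE 0.15, adjusted p = 3.49e-05). Spdef, the transcription factor of goblet maturation, had 28.8 and 27.9 CPM in wild type and 54.1 and 62.3 CPM in knockout (log2 fold change 1.04, SE 0.18, adjusted p = 0.00101), and Spink4, a peptidase inhibitor, rose by 0.91 (adjusted p = 0.00122). The mucin Muc2 had 1059 and 1308 CPM in wild type and 1513 and 1321 CPM in knockout and did not pass (adjusted p = 0.403). Zg16 and Fcgbp, mucus proteins that bind bacteria and mucin, fell by 0.64 and 0.60 on the log2 scale (adjusted p = 0.0147 and 0.0317). The fall of Zg16 did not pass without wild type 1 or 2 (adjusted p = 0.0819 and 0.0586), nor that of Fcgbp without wild type 2 (adjusted p = 0.267).

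Genes of dividing cells did not pass the test, and some of stem and enteroendocrine cells did. Of 30 S-phase genes and 24 genes of mitosis, 0 passed in either direction in edgeR, DESeq2 or limma-voom, and at an unadjusted p under 0.05 edgeR put 1 gene of each list lower and 0 higher, with median log2 fold changes of -0.09 and -0.07; Mki67, the cycling-cell antigen, had 148 and 123 CPM in wild type and 165 and 175 CPM in knockout (adjusted p = 0.278). Of 26 stem cell and Wnt genes 2 rose and 1 fell, where 3.62% and 2.82% of all tested genes did: Hopx, a marker of quiescent crypt cells, rose from 8.14 and 8.93 CPM to 18.0 and 18.5 CPM (log2 fold change 1.09, SE 0.21, adjusted p = 0.00368), and Prom1, a cell-surface glycoprotein of crypt cells, fell from 184 and 158 CPM to 99.1 and 100.5 CPM (log2 fold change -0.78, SE 0.16, adjusted p = 0.00519), the latter without a call when wild type 1 was left out (adjusted p = 0.167). Of 30 enteroendocrine genes 2 rose and 3 fell.

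Histone genes and ribosomal protein genes lay above 0 as groups. Of 56 histone genes tested 25 rose, where 3.62% of all tested genes did, and their median log2 fold change was 0.89. The histone family was chosen with earlier results of these data known, so its count describes the genes chosen. Hist1h1b, a linker histone, had 64.1 and 56.8 CPM in wild type and 125 and 133 CPM in knockout (log2 fold change 1.09, SE 0.16, adjusted p = 0.000259). Many histone copies are near-identical, and DESeq2 called 12 of them. All 80 tested cytosolic ribosomal protein genes had a positive log2 fold change (median 0.42), but only 13 passed, among them Rps25 with 148 and 128 CPM in wild type and 204 and 269 CPM in knockout (log2 fold change 0.77, SE 0.17, adjusted p = 0.009). Their summed level was 23057 and 23677 CPM in wild type, 27326 CPM in knockout 1 and 34089 CPM in knockout 2, so that knockout 2 held most of the rise. The number called was 71 without knockout 1, 6 without knockout 2, 3 without wild type 1 and 0 without wild type 2, where Rps25 had an adjusted p of 0.199. For histone genes the number called was 20 without knockout 1, 28 without knockout 2, 9 without wild type 1 and 10 without wild type 2. Processed pseudogenes, many of them copies of such genes, had a median log2 fold change of 0.40 over 848 tested. Of these 39 were called higher and 4 lower, where 3.62% and 2.82% of all tested genes were.

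**Figure D3:**
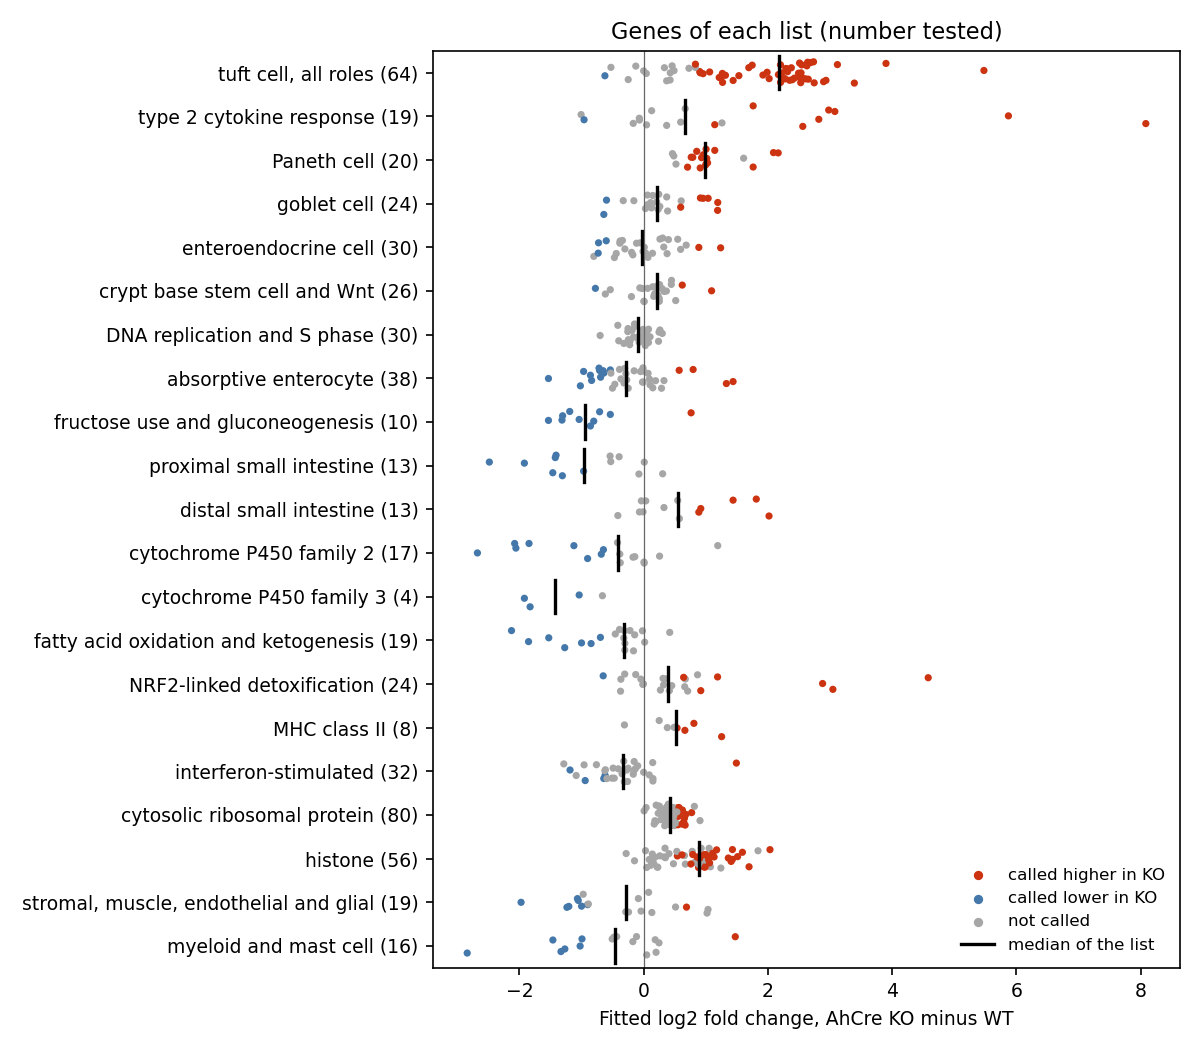
Fitted log2 fold change of AhCre KO minus WT (horizontal axis) for every tested gene of 21 lists, with the number tested in brackets, genes called higher in red, called lower in blue, not called in grey and the median of each list as a black line. The tuft list has its median at 2.19 and the list of fructose and gluconeogenesis genes at -0.95.

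Some markers of position along the small intestine moved with genotype. Several metabolic genes described next depend on this position, so the markers are given first. In a list of 13 genes typical of the proximal small intestine, written after the values were seen, 7 fell. In one of 13 distal genes, written likewise, 5 rose. Of all tested genes 2.82% fell and 3.62% rose. The counts of both lists describe the genes chosen and support nothing further. Among the 13 proximal genes 11 had a negative and 2 a positive log2 fold change, and 6 did not pass. Of the 13 distal genes 9 had a positive and 4 a negative log2 fold change, and without wild type 1 or without wild type 2 the number called higher was 3. The summed level of the proximal genes was 3212 and 2973 CPM in wild type and 1323 and 1331 CPM in knockout. For the distal genes it was 2059.8 and 2005 CPM in wild type and 2159 and 2646 CPM in knockout. No gene of either list was at 0 in any library. Pdx1, the homeobox factor of the duodenum, had 14.8 and 14.6 CPM in wild type and 5.52 and 5.53 CPM in knockout (log2 fold change -1.41, SE 0.23, adjusted p = 0.00083), and Lct, the lactase, had 692 and 691 CPM in wild type and 371 and 336 CPM in knockout (log2 fold change -0.97, SE 0.15, adjusted p = 0.000365). The iron exporter Slc40a1 and the folate carrier Slc46a1 fell by 1.46 and 1.31 on the log2 scale (adjusted p = 3.99e-05 and 5.15e-05), and Adh6a, an alcohol dehydrogenase, by 1.42 (adjusted p = 1.84e-05). In each of these 5 genes both knockout libraries lay below both wild-type libraries. Of the proximal genes that did not pass, Gata4 had 992 and 990 unscaled reads in wild type and 924 and 628 in knockout. Cck had 837 and 721 unscaled reads in wild type and 839 and 735 in knockout. The libraries differed in depth, with 12377921 and 10645569 counts in wild type and 10179884 and 9263993 in knockout. The unscaled reads of Gata4 and Cck therefore do not compare the groups directly. Of the distal genes, Slc10a2, the ileal bile acid carrier, had 13.6 and 11.1 CPM in wild type and 31.4 and 35.9 CPM in knockout (log2 fold change 1.44, SE 0.20, adjusted p = 0.000129), and Ces1g, a carboxylesterase, had 14.7 and 14.8 CPM in wild type and 48.0 and 55.7 CPM in knockout (log2 fold change 1.81, SE 0.19, adjusted p = 3.87e-06). The peptide hormone Pyy rose by 0.89 (adjusted p = 0.0295). It did not pass without wild type 1 (adjusted p = 0.108), wild type 2 (adjusted p = 0.103) or knockout 2 (adjusted p = 0.186). Cubn, the cobalamin uptake receptor of the ileum, had 136 and 141 CPM in wild type and 117 and 90.1 CPM in knockout and did not pass (log2 fold change -0.42, adjusted p = 0.175). Fabp6, the ileal bile acid binding protein, had 1220.0 and 1177 CPM in wild type and 1319 and 1688 CPM in knockout and did not pass (adjusted p = 0.267). Another list of regional genes was written before the proximal and distal lists and shares many members with both. It had 17 tested genes with 3 higher and 3 lower and a median of -0.07. Whether the 2 genotypes were sampled at the same position along the intestine was not given in the sources used here.

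Several genes for the use of fructose and the making of glucose fell. In a list of 10 such genes 9 fell and Pck1 rose, where 2.82% and 3.62% of all tested genes did. The list was written after the values were seen, so its count describes the genes chosen and supports nothing further. Slc2a5, the fructose importer of the brush border, had 104 and 96.1 CPM in wild type and 58.7 and 63.9 CPM in knockout (log2 fold change -0.71, SE 0.16, adjusted p = 0.0125). Khk, the ketohexokinase that phosphorylates fructose, had 592 and 598 CPM in wild type and 294 and 363 CPM in knockout (log2 fold change -0.86, SE 0.16, adjusted p = 0.00192). Tkfc, the triokinase further down the pathway, had 582 and 633 CPM in wild type and 306 and 285 CPM in knockout (log2 fold change -1.04, SE 0.15, adjusted p = 0.000186). The importer and both kinases were lower in each knockout library than in each wild-type library. The gluconeogenic enzymes followed: Fbp1, fructose bisphosphatase, had 141 and 136 CPM in wild type and 51.9 and 69.4 CPM in knockout (log2 fold change -1.19, SE 0.17, adjusted p = 0.000215), and G6pc, the catalytic glucose-6-phosphatase, had 78.9 and 75.3 CPM in wild type and 29.5 and 32.9 CPM in knockout (log2 fold change -1.30, SE 0.17, adjusted p = 7.31e-05). Slc37a4, which carries glucose-6-phosphate to it, fell by 1.31 on the log2 scale (adjusted p = 2.38e-05). The basolateral exporter Slc2a2, by which glucose and fructose leave the enterocyte, had 147 and 121 CPM in wild type and 44.1 and 48.8 CPM in knockout (log2 fold change -1.53, SE 0.17, adjusted p = 1.11e-05). Mlxipl, the sugar-sensing transcription factor ChREBP, fell by 0.80 (adjusted p = 0.00389). Pck1, the phosphoenolpyruvate carboxykinase of gluconeogenesis, went the other way, with 70.9 and 77.0 CPM in wild type and 118 and 133 CPM in knockout (log2 fold change 0.76, SE 0.16, adjusted p = 0.00657). Several of these calls rested on single wild-type libraries: Slc2a5 and Pck1 did not pass without wild type 1 (adjusted p = 0.212 and 0.179), nor Slc2a5, Mlxipl and Pck1 without wild type 2 (adjusted p = 0.0955, 0.127 and 0.0852). Fructose breakdown and gluconeogenesis are both stronger in the proximal small intestine, and the part of position along the intestine in these falls was not tested.

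Other absorptive enterocyte genes moved in both directions. Of 38 listed genes 11 fell and 4 rose, where 2.82% and 3.62% of all tested genes did. The median log2 fold change was -0.28, and the list includes sugar genes given above. Sis, the sucrase-isomaltase, had 1622 and 1315 CPM in wild type and 951 and 834 CPM in knockout (log2 fold change -0.72, SE 0.16, adjusted p = 0.00882; adjusted p = 0.154 without wild type 1), and Treh, the trehalase, had 261 and 257 CPM in wild type and 119 and 137 CPM in knockout (log2 fold change -1.02, SE 0.16, adjusted p = 0.000343). Without wild type 1 the list had 5 genes lower. Among channels, Aqp8 fell as given above while Aqp7, a glycerol channel, had 6.37 and 6.81 CPM in wild type and 23.7 and 23.3 CPM in knockout (log2 fold change 1.83, SE 0.21, adjusted p = 1.83e-05), with no overlap between the groups in either gene.

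Some enzymes that modify drugs, steroids and lipids fell. In the cytochrome P450 families chosen after the values were seen, 8 of 17 tested genes of family 2 and 3 of 4 of family 3 fell, and 0 of either family rose in edgeR, DESeq2 or limma-voom. The summed level of family 3 went from 1896 and 1508 CPM to 584 and 601 CPM. Cyp3a11, the main drug-oxidizing P450 of mouse gut, had 939 and 719.5 CPM in wild type and 212 and 226 CPM in knockout (log2 fold change -1.92, SE 0.17, adjusted p = 4.43e-07), and Cyp3a25 had 295 and 215 CPM in wild type and 69.3 and 74.5 CPM in knockout (log2 fold change -1.83, SE 0.18, adjusted p = 1.74e-06). Cyp2b10, a target of the receptor CAR, had 208 and 191 CPM in wild type and 45.6 and 49.1 CPM in knockout (log2 fold change -2.08, SE 0.16, adjusted p = 1.37e-07), and Cyp2c55 fell by 1.85 (adjusted p = 2.53e-06). In each of these enzymes both knockout libraries lay far below both wild-type libraries. Of 14 carboxylesterases 7 fell and 3 rose. Other families had 2 of 11 UDP-glucuronosyltransferases lower (median log2 fold change -0.04) and 2 of 10 genes of P450 family 4. Of 21 alcohol and aldehyde dehydrogenases 5 fell, and of 6 sulfotransferases 3. All these families were chosen with earlier results of these data known. Ces2b fell by 1.80 (adjusted p = 2.5e-05) while Ces1g rose. Of all tested genes 2.82% fell and 3.62% rose. Cyp3a11 is also one of the 13 proximal markers, of which 7, itself included, fell in the same libraries. The part of position along the intestine was not tested.

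In lists written after the values were seen, 7 of 19 genes of fatty acid oxidation and ketone making and 4 of 12 genes of retinoid handling fell, and 0 rose in edgeR or DESeq2. Of all tested genes 2.82% fell and 3.62% rose in edgeR. Acaa1b, a peroxisomal thiolase, had 44.8 and 45.3 CPM in wild type and 12.7 and 12.2 CPM in knockout (log2 fold change -1.85, SE 0.19, adjusted p = 3.49e-06), and Pdk4, the kinase that turns off pyruvate dehydrogenase, had 6.45 and 7.46 CPM in wild type and 1.41 and 1.77 CPM in knockout (log2 fold change -2.13, SE 0.33, adjusted p = 0.000453). Both are known targets of the lipid-sensing receptor PPAR-alpha, and both were lower in each knockout library. Retsat and Rdh7, a retinol saturase and a retinol dehydrogenase, fell by 1.25 and 1.13 on the log2 scale (adjusted p = 4.08e-05 and 0.000145).

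**Figure D4:**
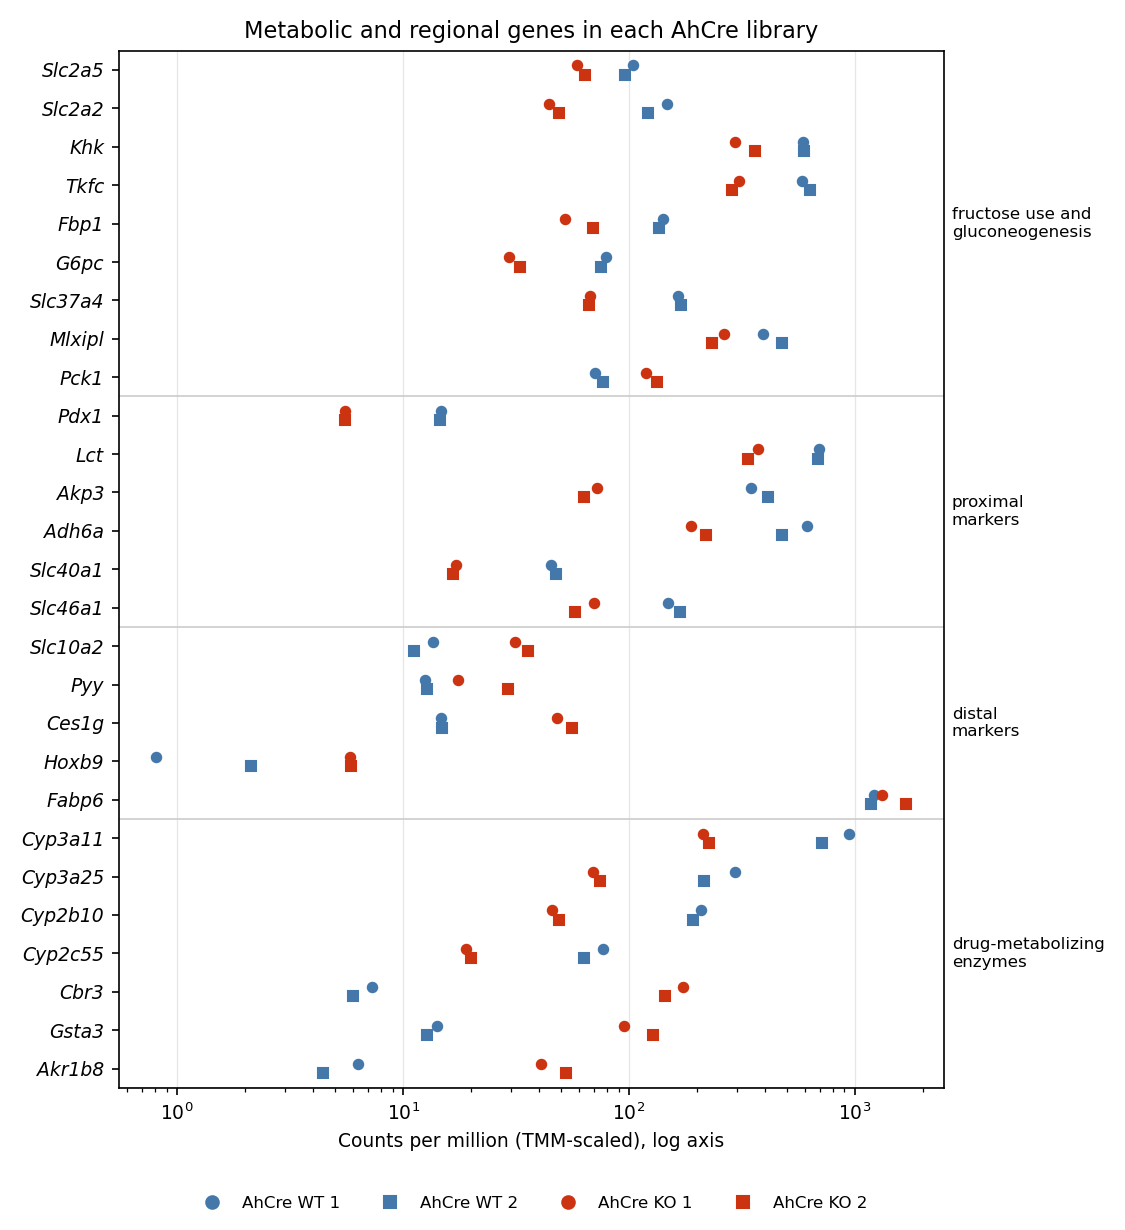
CPM (log axis) of metabolic and regional genes in each of the 4 AhCre libraries, with wild type in blue, knockout in red, replicate 1 as circles and replicate 2 as squares. Red points lie left of blue ones for 8 of the 9 fructose and gluconeogenesis genes shown, and for the proximal markers and P450 genes shown. They lie right of them for the distal markers shown and for Cbr3, Gsta3 and Akr1b8. The 4 distal genes with a negative log2 fold change are not shown.

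Some enzymes that reduce carbonyls or conjugate glutathione rose, but not their families as a whole. These families were chosen with earlier results of these data known. Of 24 tested glutathione S-transferases 3 rose and 5 fell (median log2 fold change 0.02), of 11 aldo-keto reductases 3 rose and 1 fell (median 0.06), and of 3 carbonyl reductases 1 rose. Of 24 genes linked to the stress-response factor NRF2, 6 rose and 1 fell, with a median log2 fold change of 0.39. Of all tested genes 3.62% rose and 2.82% fell. Cbr3, a carbonyl reductase, had 7.26 and 5.98 CPM in wild type and 173 and 145 CPM in knockout (log2 fold change 4.58, SE 0.21, adjusted p = 1.94e-10). Gsta3, a glutathione transferase, had 14.2 and 12.7 CPM in wild type and 95.3 and 127 CPM in knockout (log2 fold change 3.04, SE 0.20, adjusted p = 2.43e-08), and Akr1b8, an aldo-keto reductase outside that list, had 6.29 and 4.42 CPM in wild type and 41.0 and 52.4 CPM in knockout (log2 fold change 3.11, SE 0.23, adjusted p = 8.54e-08). Me1, the malic enzyme that makes NADPH, had 16.2 and 17.5 CPM in wild type and 145 and 103 CPM in knockout (log2 fold change 2.88, SE 0.20, adjusted p = 4.27e-08), and Gpx2, the glutathione peroxidase of the gut, had 402 and 383 CPM in wild type and 823 and 967 CPM in knockout (log2 fold change 1.19, SE 0.15, adjusted p = 5.25e-05). In all 5 genes both knockout libraries lay above both wild-type libraries. Nqo1, a quinone reductase that both NRF2 and the aryl hydrocarbon receptor induce, rose by 0.96 (adjusted p = 0.00168).

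BNF is an agonist of the aryl hydrocarbon receptor, and the targets of this receptor were read as well. Of 9 tested genes 2 rose, Nqo1 and Cyp1b1, where 3.62% of all tested genes did. Cyp1a1, the classical target and the gene whose promoter drives AhCre, had 42.5 and 30.7 CPM in wild type and 28.5 and 36.4 CPM in knockout and overlapped between the groups (log2 fold change -0.18, SE 0.20, adjusted p = 0.697). Cyp1b1, another P450 of the set, rose by 1.27 (adjusted p = 0.0439) from a few CPM. That call ended without knockout 1 (adjusted p = 0.134), without wild type 1 (0.336), without wild type 2 (0.0526), under DESeq2 (0.176) and under limma-voom (0.0516).

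Of 16 tested antimicrobial, Reg family and oxidase genes 3 rose and 2 fell, where 3.62% and 2.82% of all tested genes did. Of the 16, 12 had a negative log2 fold change, and the median was -0.25. Duox2, the dual oxidase that makes hydrogen peroxide at the mucosal surface, had 83.2 and 104 CPM in wild type and 575 and 433 CPM in knockout (log2 fold change 2.43, SE 0.18, adjusted p = 8.92e-08), and its maturation factor Duoxa2 had 10.6 and 13.2 CPM in wild type and 76.3 and 93.1 CPM in knockout (log2 fold change 2.83, SE 0.20, adjusted p = 4.76e-08). Reg3a, an antibacterial lectin, fell from 357 and 348 CPM to 107 and 129 CPM (log2 fold change -1.58, SE 0.16, adjusted p = 2.8e-06), whereas its relative Reg3g had 1044 and 1001 CPM in wild type and 836 and 979 CPM in knockout and did not pass (adjusted p = 0.592). Of 8 tested MHC class II genes 4 rose, with a median of 0.51; H2-Aa, which leukocytes also make and which is a chain of the antigen-presenting dimer, had 61.8 and 59.9 CPM in wild type and 132 and 159 CPM in knockout (log2 fold change 1.25, SE 0.17, adjusted p = 7.09e-05). H2-Eb1, Cd74 and H2-Ab1 rose by 0.81, 0.66 and 0.54 (adjusted p = 0.00348, 0.0111 and 0.0404). None of these 3 passed without wild type 1 (adjusted p = 0.0564, 0.248 and 0.402) or without wild type 2 (adjusted p = 0.121, 0.0607 and 0.312). Of 32 interferon-stimulated genes tested 4 fell and 1 rose, against 2.82% and 3.62% of all tested genes, with a median of -0.33. Isg15, a ubiquitin-like modifier, had 12.5 and 12.8 CPM in wild type and 4.42 and 6.74 CPM in knockout (log2 fold change -1.19, SE 0.26, adjusted p = 0.00835), and Ifit1, an antiviral RNA-binding protein, fell by 0.94 (adjusted p = 0.0251, with 0.316 without wild type 1 and 0.0599 under DESeq2).

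The genes for which PRC1.6 is best known were mostly too scarce for the count filter. Of 53 germline, meiosis and piRNA genes 16 could be tested, and 1 rose, where 3.62% of all tested genes rose: Tdrkh, a Tudor-domain protein of piRNA maturation, with 1.77 and 1.01 CPM in wild type and 10.8 and 11.5 CPM in knockout (log2 fold change 2.97, SE 0.32, adjusted p = 6.16e-06). Its exons overlap those of the gene Oaz3, and how the authors' counting treated strand was not given in the sources used here, so that reads of the pair may not be told apart. With no low-count filter all 53 were tested, again with 1 higher, and their median was -0.04. Of 63 developmental regulators that Polycomb represses in other cells, 6 were tested and 1 rose, Hoxb9, with 0.806 and 2.12 CPM in wild type and 5.82 and 5.86 CPM in knockout (log2 fold change 2.02, SE 0.39, adjusted p = 0.00343); Hoxb9 is also a distal marker above. Of 15 PRC1.6 partners of PCGF6, 1 rose, also against 3.62% of all genes. Mga, the scaffold that binds E-boxes, rose from 40.7 and 30.9 CPM to 71.2 and 74.0 CPM (log2 fold change 1.02, SE 0.18, adjusted p = 0.00159; adjusted p = 0.108 without wild type 2). Of 20 subunits of other PRC1 complexes 0 passed in edgeR, DESeq2 or limma-voom, and 0 had an unadjusted p under 0.05.

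Some genes of cells outside the epithelium fell. Of 19 tested stromal, muscle, endothelial and glial genes 7 fell and 1 rose, with a summed level of 349 and 345 CPM in wild type and 243 and 259.6 CPM in knockout. Of all tested genes 2.82% fell and 3.62% rose. The collagen gene Col1a1 had 59.3 and 72.8 CPM in wild type and 17.3 and 16.4 CPM in knockout (log2 fold change -1.97, SE 0.19, adjusted p = 1.52e-06). Col3a1, another fibrillar collagen, had 46.1 and 42.0 CPM in wild type and 20.2 and 18.0 CPM in knockout (log2 fold change -1.20, adjusted p = 0.000349). For both collagens the knockout libraries lay well below the wild-type libraries. Of the myeloid genes Lyz2, a macrophage lysozyme, had 131 and 139 CPM in wild type and 57.7 and 75.3 CPM in knockout (log2 fold change -1.02, SE 0.17, adjusted p = 0.000899). Csf1r, the macrophage growth factor receptor, fell by 1.46 (adjusted p = 0.0097) and Cx3cr1, the fractalkine receptor, by 2.84 (adjusted p = 0.00247). Kit, the myeloid and mast cell list's one rise, is also made by secretory crypt cells, and had 37.8 and 37.9 CPM in wild type and 111 and 99.4 CPM in knockout (log2 fold change 1.47, SE 0.17, adjusted p = 1.37e-05). Of the 22 myeloid and mast cell markers, Prg2, Epx and Cd209a were each at 0 in 1 library, and 0 markers were at 0 in all 4. None of the 24 stromal markers was at 0 in any library. The part of these cells in the falls of other genes was not tested.

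Some genes named above share exon positions with another annotated gene, and so do 150 of the 588 that rose and 124 of the 458 that fell. The share among all tested genes was not counted, so whether called genes overlap more often is not shown. The named ones are Trpm5, Gng13, Itpr3, Alox5ap, Ptgs1, Ltc4s, Ache, Runx1, Ptpn6, Dclk1, Il17rb, Adh1, Hopx, Prom1, Tkfc, Mlxipl, Cyp2c55, Cubn, Acaa1b, Retsat, Me1, Duoxa2, Cd74, Tdrkh, Col3a1, Csf1r, Cx3cr1, Rps25, Neurl1a, Treh and, among genes named with the other driver, Dnah2 and Bhlhe40. Their counts may hold reads of the overlapping gene.

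The Villin CreERT2 libraries, 3 wild type and 2 knockout give the same contrast under another driver, and share no library with AhCre. Their Cre is fused to a modified estrogen receptor under the Villin promoter, which is active in intestinal epithelium, and the sample titles give 15 days after tamoxifen. As for AhCre, a second description line gives 7 days, and the description text of these samples names BNF where title and treatment name tamoxifen. They came from crypts of C57BL/6 mice of 8 to 12 weeks, labelled WT and Pcgf6 KO, as for AhCre. Fitted alone they had 224 of 13673 genes higher (1.64%) and 35 lower (0.256%). Of the genes called higher in AhCre, 491 were tested there and 65.0% had a positive log2 fold change, against 50.8% of all 13333 genes tested in both, and 115 were called higher in both (19.6% of the AhCre rises and 51.3% of the Villin rises). Of the genes called lower in AhCre, 376 were tested there, 71.8% were positive, 18 were called higher and 2 were called lower (0.437% of the AhCre falls and 5.71% of the Villin falls). Few of the falls were called in Villin. Of 60 tuft genes tested there 36 rose, with a median log2 fold change of 3.06. The Paneth list had a median of -1.03 there with 1 of 20 higher, the histone family -0.94, the ribosomal list -0.72 and the fructose and gluconeogenesis list 1.34. The genes shared upwards included Pla2g4c (9.37 in Villin, adjusted p = 2.78e-06), Trpm5 (4.42, 0.00413), Sucnr1 (5.02, 0.00413), Gsdmc4 (3.21, 0.00454) and Me1 (3.86, 0.00454). Aqp8 was one of the 2 that fell in both (-5.58, 0.00429).

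**Figure D5:**
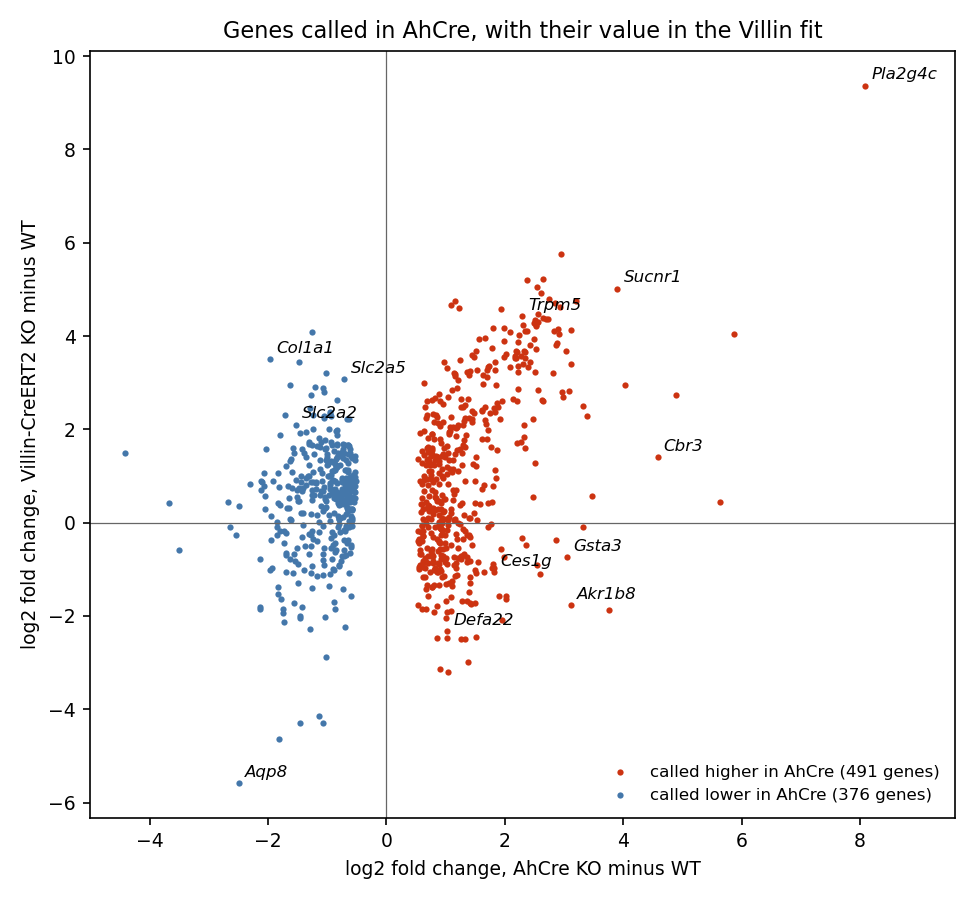
Log2 fold change in the Villin CreERT2 fit (vertical axis) against that in the AhCre fit (horizontal axis) for the genes called in AhCre that both fits tested, 491 called higher in red and 376 called lower in blue. Most blue points lie above 0 on the vertical axis (71.8%), and Pla2g4c lies at the top right in both.

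Whether a gene's response differs between the drivers was tested as the difference of the 2 contrasts over all 9 libraries, and 12 of 16250 genes passed (0.0738%), 1 with a higher (0.00615%) and 11 with a lower value in AhCre (0.0677%). Slc2a2, which fell in AhCre, had a log2 fold change of 2.10 in Villin; the difference was -3.51 (SE 0.49, adjusted p = 0.0346). For Slc2a5 it was -3.67 (adjusted p = 0.0346), for Slc37a4 -2.87 (0.0346), and for Slc46a1 -2.91 (0.0406). For the collagen gene Col1a1 it was -5.38 (0.0346). Akr1b8 was the 1 gene with a higher value in AhCre, at 5.0 (SE 0.72, adjusted p = 0.0346). No tuft gene passed this test; Trpm5 had a difference of -2.01 (SE 0.90, adjusted p = 0.306) and Pla2g4c one of -1.17 (SE 0.74, adjusted p = 0.459), which does not show that the drivers act alike. The others were Dnah2, Npl, Bbox1, Bhlhe40, Slc2a7 and Hlf, all with a lower value in AhCre.

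The 12 differences depended on the libraries: in edgeR 0 genes passed when knockout 1, knockout 2, wild type 1 or wild type 2 of AhCre, or knockout 1 or wild type 2 of Villin, was left out, and 415 genes passed without knockout 2 of Villin. At an unadjusted p under 0.05, 1552 genes had a higher value in AhCre and 1027 a lower one.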

How the data were processed

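RNA of isolated crypts was extracted with an RNeasy Plus kit and 2 ng went into Smart-seq2 libraries, per the labels' protocols. The deposited values were whole-number counts per gene, which the authors had not normalised. The submitters' processing notes name STAR 2.7, featureCounts, DESeq2 1.20 and mouse build mm10; the annotation and the strand setting were not given in the sources used here. Gene symbols matched GENCODE M21 (GRCm38) for coordinates and exon overlap. Counts of the 4 AhCre libraries were filtered with filterByExpr, scaled by TMM and tested with edgeR 4.0.16 (quasi-likelihood, R 4.3.3), knockout minus wild type, with Benjamini-Hochberg adjustment over all 16257 genes tested and a threshold of 0.05. The Villin fit and the difference between drivers were made likewise. CPM values use TMM library sizes, and depth was 9263993 to 12377921 counts per library. The code was tested on simulated data. Alternatives were DESeq2 1.42.0, limma-voom (limma 3.58.1), other filters and scalings, all 9 libraries in 1 fit, a replicate block and leaving out each library. Members and gene lists were chosen with earlier results of these data known. Named genes were the 15 largest changes in each direction with a mean of at least 1 CPM, the 10 smallest adjusted p, the 8 most abundant called in each direction and up to 8 members of each list, and of these the text gives those that describe a list; others were chosen after their values were seen. A few genes are not reported here by name.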

Additional observations from a re-analysis of the deposited data

Results flagged for a closer look

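Of the 12 genes whose response differed between the drivers, 10 are given here; the other two, Slc2a7 and Hlf, had the largest adjusted p (0.0461 and 0.0481). For these 10 the effect of knockout differed between AhCre and Villin by the test of the difference itself (edgeR, over all 9 libraries, AhCre minus Villin, log2 scale). Of these, 9 fell in AhCre and had a positive log2 fold change in Villin. Dnah2, an axonemal dynein heavy chain, differed by -3.55, from -1.79 in AhCre and 1.88 in Villin. Npl, the pyruvate lyase of sialic acid, differed by -3.73, from -1.06 and 2.80. Slc2a2 differed by -3.51, Slc37a4 by -2.87 and Slc2a5 by -3.67, 3 carriers of sugars or sugar phosphates. Col1a1 differed by -5.38, from -1.97 and 3.51. Bbox1, the last enzyme of carnitine synthesis, differed by -3.17, Bhlhe40, a transcription factor of the clock and of hypoxia, by -3.11 and Slc46a1 by -2.91. Akr1b8 differed by 5.0, from 3.11 in AhCre and -1.76 in Villin. Adjusted p was 0.0346 for 8 of them and 0.0406 for Bhlhe40 and Slc46a1. The falls of Npl and Bbox1 in AhCre did not pass without wild type 1 (adjusted p = 0.0632 and 0.129). Driver, inducer and any difference in handling between the 2 sets of mice cannot be told apart.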

How the results depend on the processing

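The 1046 AhCre calls (588 higher, 458 lower) became 1 (1 higher, 0 lower) with all 9 libraries in the fit, 643 (383 and 260) with an absolute log2 fold change of at least 1 required, and 485 to 2100 (300 to 1082 higher, 185 to 1018 lower) when 1 library was left out. DESeq2 called 732, limma-voom 1019 and no low-count filter 1300. The replicate numbers shared by the groups were not shown to pair the libraries (correlation of WT 1 minus WT 2 with KO 1 minus KO 2 across genes -0.10): the replicate block called 1062 genes, 958 of them shared with the unblocked fit. With it the calls of Fcgbp and H2-Ab1, among genes named here, were lost (adjusted p = 0.0823 and 0.0908). The crossed pairing, added after seeing the data, called 1604 (887 higher, 717 lower). Pcgf6, at -0.88, did not pass under DESeq2 (-0.88), with all 9 libraries (-0.89) or with the fold minimum (-0.88), and ran from -1.11 to -0.61 with 1 library left out. The 259 Villin calls became 510 under DESeq2, 137 under limma-voom, 660 without a filter and 1 to 997 with 1 library left out. The 12 differences between drivers became 378 under DESeq2, 340 without a filter, 0 with the replicate block and 0 to 415 with 1 library left out. Among the named genes only Cyp1a1 changed sign: from -0.18 it went to 0.069 without wild type 1 and -0.40 without wild type 2, passing in neither. For the other moves the cause was not tested.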
